A study of Homo sapiens with 5 samples.

Results

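The genes described here are 58 genes of the cell cycle, taken by their listed symbols from the feature lists of 8 single-cell RNA sequencing libraries, where each was found once. They are 58 of 36601 gene features in the 5 libraries up to D10, and of 33538 in the 3 libraries from D22 on. In all, 23 are genes of DNA replication and its onset (S-phase genes), 33 act in G2 and mitosis (mitotic genes) and 2 are the G1 cyclins CCND1 and CCND2. The rule itself uses no measured value, though the genes were chosen with earlier results of these data known.

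The study differentiated the wild-type human embryonic stem cell line WA09 (also known as H9) towards neurons that make gonadotropin-releasing hormone (GnRH), and measured RNA in single cells on 10x Genomics droplets. D0 is the undifferentiated line. D5_dSMADi and D10_dSMADi had 5 and 10 days of dual SMAD inhibition by dorsomorphin and SB431542, and D5_XAV939 and D10_XAV939 had XAV939 at 10 µM besides. XAV939 inhibits tankyrase and so lowers Wnt/β-catenin signalling. D22, D24 and D26 were differentiated without XAV939: dual SMAD inhibition was followed by FGF8 and, from the day after replating, by the Notch inhibitor DAPT. Every condition was 1 library of the same line, so no difference could be set against a spread between replicates, no test was made, and all intervals (95%) cover counting error only. The first 5 conditions were tagged, pooled and run together, and D22, D24 and D26 were separate runs with another dissociation enzyme, so that values on the 2 sides are set side by side and not compared.

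The libraries kept between 1009 and 11056 cells and between 58073098 and 130440502 UMIs (molecules counted), with a median of 24290.5 to 69455 UMIs per cell up to D10 and of 7180 to 12179 from D22 on. Labelled cell types were checked against marker lists. The 5 pluripotent cell markers summed to 3964 CPM (UMIs of a gene scaled to a common total of all genes) at D0 and to between 159 and 333 CPM at D5 and D10. The 6 neural progenitor markers summed to 1990.1 to 4236 CPM from D5 to D22 and to 543 and 532 at D24 and D26, where the 7 neuron markers stood at 12268 and 12326. At D22, labelled as neurons, the neuron markers stood at 2131 CPM. No barcode was shared within the pool, and separate runs shared at most 37.

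A dividing cell prepares DNA replication in G1, copies its genome in S phase and separates the copies in mitosis. D-type cyclins with CDK4 and CDK6 inactivate the RB protein, which frees E2F factors to switch on the genes of S phase. Mitotic genes are switched on later, in G2, and are kept off in resting cells by the DREAM complex, which binds CHR elements of their promoters. Neural progenitors cycle, and neurons leave the cycle for good when they form.

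S-phase and mitotic genes largely carried different letters at their starts, and 6 promoters, picked for holding the letters of their list, are shown as examples of that division. RefSeq promoters (GRCh38.p14, 250 bases before to 50 after the start) were matched by symbol for 46 of the 58 genes, 19 of them S-phase and 27 mitotic. The genes MCM4, MCM5, E2F8, CCNE2, CCND1, CCND2, UBE2C, HMGB2, AURKA, BIRC5, TTK and TPX2 were not matched. Printed are the 150 bases just before the start, read 5′ to 3′ on the strand of the gene, at chr2:135876444-135876593 on the minus strand (MCM6), chr20:5126623-5126772 on the minus strand (PCNA), chr20:33686386-33686535 on the minus strand (E2F1), chr15:59104996-59105145 on the plus strand (CCNB2), chr9:89311045-89311194 on the plus strand (CKS2) and chr10:128126424-128126573 on the minus strand (MKI67). Not every gene had the letters of its list in these 150 bases. RRM2 and CCNE1 held CHR and no E2F letters there, and TOP2A and CCNA2 held no CHR letters. Capitals mark E2F, CHR or CCAAT letters on either strand.
MCM6: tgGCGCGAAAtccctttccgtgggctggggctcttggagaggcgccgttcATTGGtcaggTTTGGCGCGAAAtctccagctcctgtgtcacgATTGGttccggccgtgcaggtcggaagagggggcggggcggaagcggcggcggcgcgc
PCNA: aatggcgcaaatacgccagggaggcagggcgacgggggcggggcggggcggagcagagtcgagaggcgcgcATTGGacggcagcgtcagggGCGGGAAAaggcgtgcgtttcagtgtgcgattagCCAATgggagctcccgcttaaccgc
E2F1: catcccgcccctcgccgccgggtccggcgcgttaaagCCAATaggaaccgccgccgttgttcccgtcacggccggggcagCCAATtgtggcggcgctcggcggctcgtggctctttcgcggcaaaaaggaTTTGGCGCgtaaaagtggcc
CCNB2: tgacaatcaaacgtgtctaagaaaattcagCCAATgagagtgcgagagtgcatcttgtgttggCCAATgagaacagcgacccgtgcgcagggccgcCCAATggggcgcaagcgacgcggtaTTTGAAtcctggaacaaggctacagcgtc
CKS2: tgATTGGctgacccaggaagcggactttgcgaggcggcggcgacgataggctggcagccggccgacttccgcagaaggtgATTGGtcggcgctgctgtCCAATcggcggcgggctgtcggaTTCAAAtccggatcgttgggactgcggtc
MKI67: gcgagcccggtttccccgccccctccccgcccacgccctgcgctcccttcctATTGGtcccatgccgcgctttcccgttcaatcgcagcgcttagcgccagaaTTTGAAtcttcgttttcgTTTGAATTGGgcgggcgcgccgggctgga

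E2F letters (TTTCGCGC, TTTGGCGC, TTTCCCGC or GCGGGAA) were found on either strand of the 300 bases in 15 of 19 S-phase promoters and 2 of 27 mitotic promoters, those of CDK1 and NUSAP1, against 7.56% of all 35116 promoters of that length. TTTCCCGC holds the reverse complement of GCGGGAA, TTTGGCGC and TTTCGCGC can share letters on opposite strands (as in MCM6), and CHR letters can overlap a CCAAT box (as in MKI67), so a promoter was counted once per kind of letters. CHR letters (TTTGAA, the variant with TTTAAA and the further variant TTCGAA) were found in 4 of 19 S-phase and 24 of 27 mitotic promoters, against 25.1% of all. In CKS2 they began 29 bases before the start, in CCNB2 29 and 193 bases before it and in MKI67 29 and 47 bases before it. The CCAAT box was common to both lists, with 13 of 19 and 21 of 27 against 34.6%. CHR and CCAAT letters together stood in 3 of 19 S-phase and 19 of 27 mitotic promoters, against 9.7% of all. A match of letters is a description and not a bound site.

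**Figure D1:**
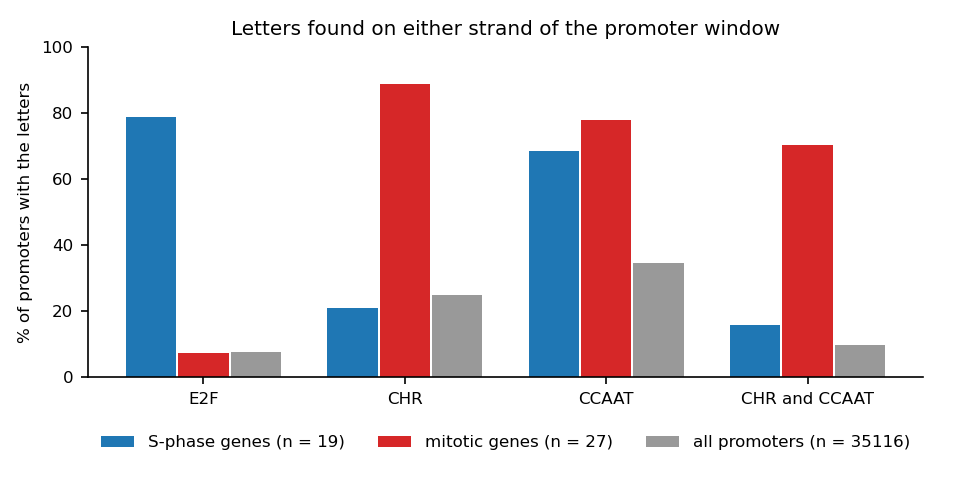
Share of promoters (y axis, percent) that hold E2F, CHR or CCAAT letters, or CHR and CCAAT together, for 19 S-phase genes, 27 mitotic genes and all 35116 promoters. E2F letters stood in 78.9% of the S-phase promoters, and CHR letters in 88.9% of the mitotic ones.

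Both lists were expressed in every library and were far lower at D24 and D26 than at D22. Each gene's UMIs were summed over the cells kept and scaled to CPM, so a value says nothing of cells against RNA per cell until the cells are counted apart, and levels are not compared between genes. The 23 S-phase genes summed to 2319 CPM at D0, 959 in D5_dSMADi, 1533 in D5_XAV939, 1752 in D10_dSMADi, 2169 in D10_XAV939, 614 at D22, then 172 at D24 and 232 at D26. For the 33 mitotic genes the sums came to 5455, 4794, 5866, 6200.1, 7237, 4609, 259.9 and 118 CPM in the same order. Within the pool both sums were thus lowest in D5_dSMADi, and the S-phase sum was highest at D0 and the mitotic sum in D10_XAV939.

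**Figure D2:**
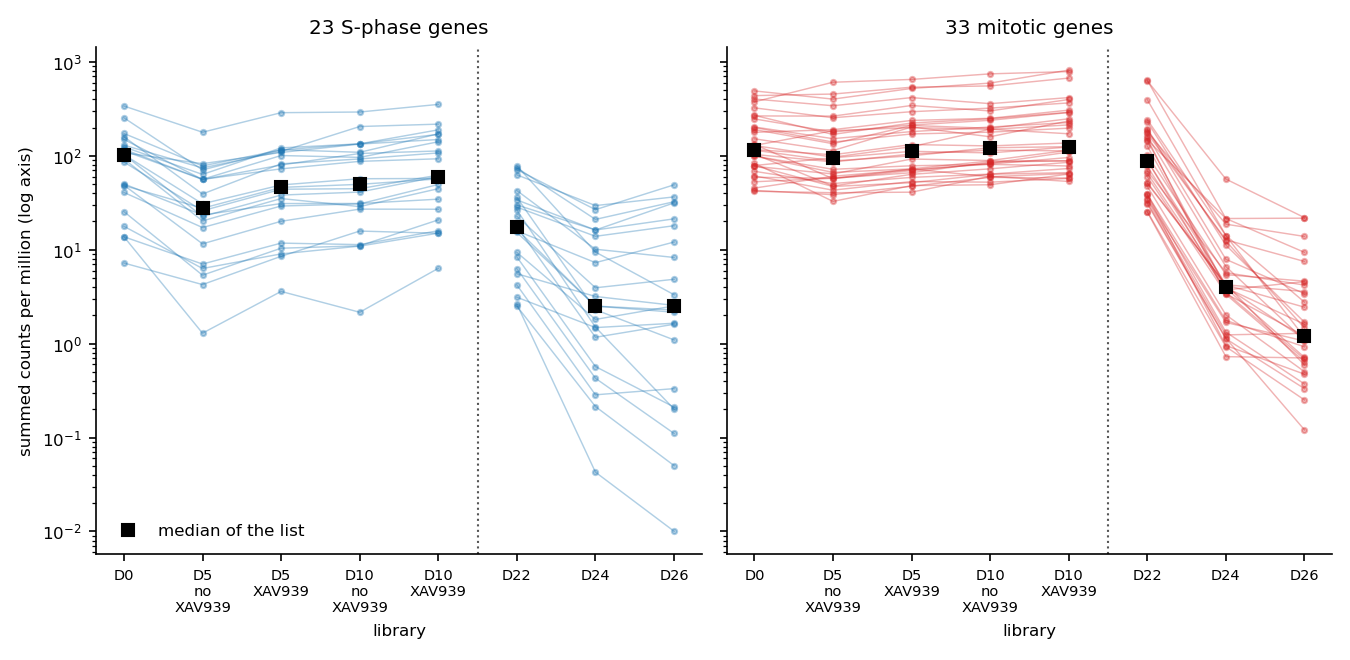
Summed level of each S-phase gene (left) and mitotic gene (right) in the 8 libraries (CPM, log axis), with lines joining the values of 1 gene and squares at the median of the list. The dotted line parts the pooled run from the separate runs, and the mitotic median goes from 88.9 CPM at D22 to 1.21 at D26.

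MCM2 and MCM5 are subunits of the MCM helicase, which is loaded on origins in G1 and unwinds DNA in S phase. MCM2 measured 40.8 CPM at D0, 17.2 in D5_dSMADi, 29.2 in D5_XAV939, 30.8 in D10_dSMADi, 49.5 in D10_XAV939, 15.3 at D22, 2.51 at D24 and 2.16 at D26. MCM5 measured 92.6 CPM at D0, 20.3 in D5_dSMADi, 35.1 in D5_XAV939, 28.8 in D10_dSMADi, 44.7 in D10_XAV939, 16.5 at D22, 2.51 at D24 and 2.28 at D26. Within the pool both were lowest in D5_dSMADi, and both were far lower at D24 and D26 than at D22. CDC6, which loads the helicase, measured 103 CPM at D0, 30.8 in D5_dSMADi, 49 in D5_XAV939, 57 in D10_dSMADi, 57.4 in D10_XAV939, 4.22 at D22, 0.285 at D24 and 0.332 at D26. PCNA, the sliding clamp of DNA polymerases, measured 149 CPM at D0, 56 in D5_dSMADi, 79.9 in D5_XAV939, 106 in D10_dSMADi, 113 in D10_XAV939, 28.4 at D22, 13.9 at D24 and 18 at D26. PCNA kept more of its D22 level at D26 than CDC6 did.

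E2F1, an activating E2F factor, measured 25.5 CPM at D0, 5.36 in D5_dSMADi, 10.4 in D5_XAV939, 11 in D10_dSMADi, 20.8 in D10_XAV939, 36.1 at D22, 2.3 at D24 and 1.1 at D26, with its highest level in the pool at D0 and in the later runs at D22. CCNE2, a cyclin E that drives entry into S phase, measured 7.22 CPM at D0, 4.25 in D5_dSMADi, 8.51 in D5_XAV939, 15.8 in D10_dSMADi, 15 in D10_XAV939, 5.55 at D22, 3.18 at D24 and 2.55 at D26. Within the pool its highest levels were those of D10, with and without XAV939. CCND1 measured 156 CPM at D0, 139 in D5_dSMADi, 156 in D5_XAV939, 182 in D10_dSMADi, 213 in D10_XAV939, 106 at D22, 11 at D24 and 2.27 at D26. CCND2 measured 151 CPM at D0, 127 in D5_dSMADi, 198 in D5_XAV939, 132 in D10_dSMADi, 316 in D10_XAV939, 111 at D22, 13.7 at D24 and 4.69 at D26. Both were highest in D10_XAV939 within the pool, CCND2 by the wider margin.

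TOP2A, the topoisomerase that untangles sister chromosomes, measured 438 CPM at D0, 455 in D5_dSMADi, 538 in D5_XAV939, 555 in D10_dSMADi, 673 in D10_XAV939, 396 at D22, 14.2 at D24 and 2.77 at D26. MKI67, which coats mitotic chromosomes and is the usual marker of proliferation, measured 190.4 CPM at D0, 135 in D5_dSMADi, 210.4 in D5_XAV939, 197 in D10_dSMADi, 248 in D10_XAV939, 146 at D22, 4.01 at D24 and 1.13 at D26. CDK1, the kinase that drives mitosis, measured 116 CPM at D0, 103 in D5_dSMADi, 132 in D5_XAV939, 127 in D10_dSMADi, 137 in D10_XAV939, 88.9 at D22, 4.28 at D24 and 0.593 at D26. All 3 were lower at D24 than at D22, and lower again at D26. CCNB1, its cyclin partner, measured 270.0 CPM at D0, 169 in D5_dSMADi, 224 in D5_XAV939, 248 in D10_dSMADi, 291 in D10_XAV939, 174 at D22, 12.7 at D24 and 7.5 at D26. AURKA, a kinase of the spindle poles, measured 103 CPM at D0, 86.1 in D5_dSMADi, 105 in D5_XAV939, 115 in D10_dSMADi, 113 in D10_XAV939, 50.8 at D22, 4.23 at D24 and 3.59 at D26. HMGB2, a chromatin protein abundant in dividing cells, measured 376 CPM at D0, 607 in D5_dSMADi, 651 in D5_XAV939, 746 in D10_dSMADi, 789 in D10_XAV939, 629.8 at D22, 56.5 at D24 and 22 at D26, and like TOP2A was higher than at D0 in all 4 libraries of D5 and D10.

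The comparison at D5 and D10 asks what added inhibition of Wnt signalling does to the cells under dual SMAD inhibition. At D5, S-phase genes were higher with XAV939 than without it, and mitotic genes slightly so. Of the 23 S-phase genes, 16 were higher by 1.5-fold or more with the counting interval on that side of 1 (the rule for every count below, for features with 50 UMIs or more), while 6.19% of the 15966 features measured were higher and 4.55% lower. The median log2 ratio of the list was 0.74, all 23 were above 0, and the median of all features was 0.052. The 33 mitotic genes had a median of 0.29, again all above 0 (KIF2C, at 0.019, lay below the median of all features). Past 1.5-fold were 2 of 33, ASPM at 0.83 and MKI67 at 0.64, a share near the 6.19% of all features. At 2-fold 3 of 23 S-phase genes were higher and 0 of 33 mitotic genes higher, against 1.79% of features higher and 1.64% lower.

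All 6 E2F factors, E cyclins and checkpoint genes of the list were past 1.5-fold higher at D5, 7 of 10 genes of licensing and the helicase, and 3 of 7 genes of nucleotide supply and DNA synthesis, against 6.19% of all features. These roles are small parts of the same 23 genes. E2F8, an atypical E2F that represses E2F targets late in S phase, went from 1.29 CPM in D5_dSMADi to 3.6 in D5_XAV939, a log2 ratio of 1.48 (1.15 to 1.81). MCM4 went from 39.2 to 82.2 CPM, 1.07 (1.01 to 1.13). CCNE2 had 1.00 (0.81 to 1.19) and E2F1 0.95 (0.79 to 1.12). The smallest S-phase ratios were those of CDT1, which loads the helicase with CDC6, at 0.41, of RRM1, the large subunit of ribonucleotide reductase, at 0.40, and of FEN1, which trims Okazaki fragments, at 0.37. Among mitotic genes the highest were ASPM (spindle poles), MKI67 and BUB1B (spindle checkpoint, 0.56), and the lowest KIF2C at 0.019, HMGB2 at 0.10 and CCNB2 at 0.11. CCND2 was higher by 0.64 (0.61 to 0.68) and CCND1 by 0.16 (0.13 to 0.20).

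At D10 fewer S-phase genes were higher with XAV939, and CCND2 was much higher. The S-phase median was 0.34, with 21 of 23 above 0 and 5 of 23 past 1.5-fold higher, against 6.44% of 16077 features higher, 9.48% lower and a median of all features of -0.0026. The 5 were E2F8 at 1.55 (1.29 to 1.82), E2F1 at 0.92 (0.79 to 1.04), MCM2 at 0.69, MCM3 at 0.65 and MCM5 at 0.63. The E cyclins and CDC6 were at the other end, with CCNE2 at -0.077 (-0.20 to 0.049), CCNE1 between -0.099 and 0.090, and CDC6 at 0.010 (-0.055 to 0.075). CCND2 went from 132 to 316 CPM, a log2 ratio of 1.26 (1.22 to 1.29), and CCND1 from 182 to 213, 0.22 (0.19 to 0.26).

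No mitotic gene was past 1.5-fold at D10 (0 of 33), with ASPM highest at 0.56, CENPF (a kinetochore protein) at 0.46 and UBE2C (the E2 enzyme of the anaphase-promoting complex) at 0.40, and KIF2C lowest at -0.18, CENPE (a kinetochore motor) at -0.16 and BUB1 at -0.057. At 2-fold 1 of 23 S-phase genes were higher and 0 of 33 mitotic genes higher, against 2.70% of features higher and 4.52% lower. The mitotic median of 0.18 depended on which cells were kept: it was -0.021 over all deposited barcodes and -0.0075 when D10 cells were kept by the limits of D5, a choice made after the values were seen, and 0.30, with 2 genes past 1.5-fold, without the 6% of cells with most UMIs. All barcodes are also what the cell numbers given by the study for D5 and D10 come to. Of the barcodes that the limits removed, 308 without and 296 with XAV939 had 1500 UMIs or more, with medians of 60441 and 60911.5 UMIs, and 73.4% and 67.2% of these held 5 or more mitotic genes at equal depth.

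Across the 2 days, the ratio of a gene was larger at D5 than at D10 for 22 of 23 S-phase genes, with counting intervals apart for 15, and for 27 of 33 mitotic genes, apart for 20. A larger ratio at D10 held beyond the intervals for CCND2 and for CENPF and HMMR of the mitotic list. The same shares over all features were not computed, so these counts are not read as particular to the lists. The D10 mitotic median changed with the cells kept, and the counts across days were not recomputed for other choices of cells. The intervals of E2F8 and of E2F1 overlapped between the 2 days. At D10 the neuron markers also stood higher with XAV939, 5 of 7 past 1.5-fold, against 6.44% of all features, and none at 0. Their sum was 229.9 CPM without and 415 CPM with XAV939. At D5 none of the 5 measured was past 1.5-fold higher, against 6.19% of all features, with sums of 103 CPM without and 101 CPM with XAV939. The part of the neuron markers in these results was not tested.

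**Figure D3:**
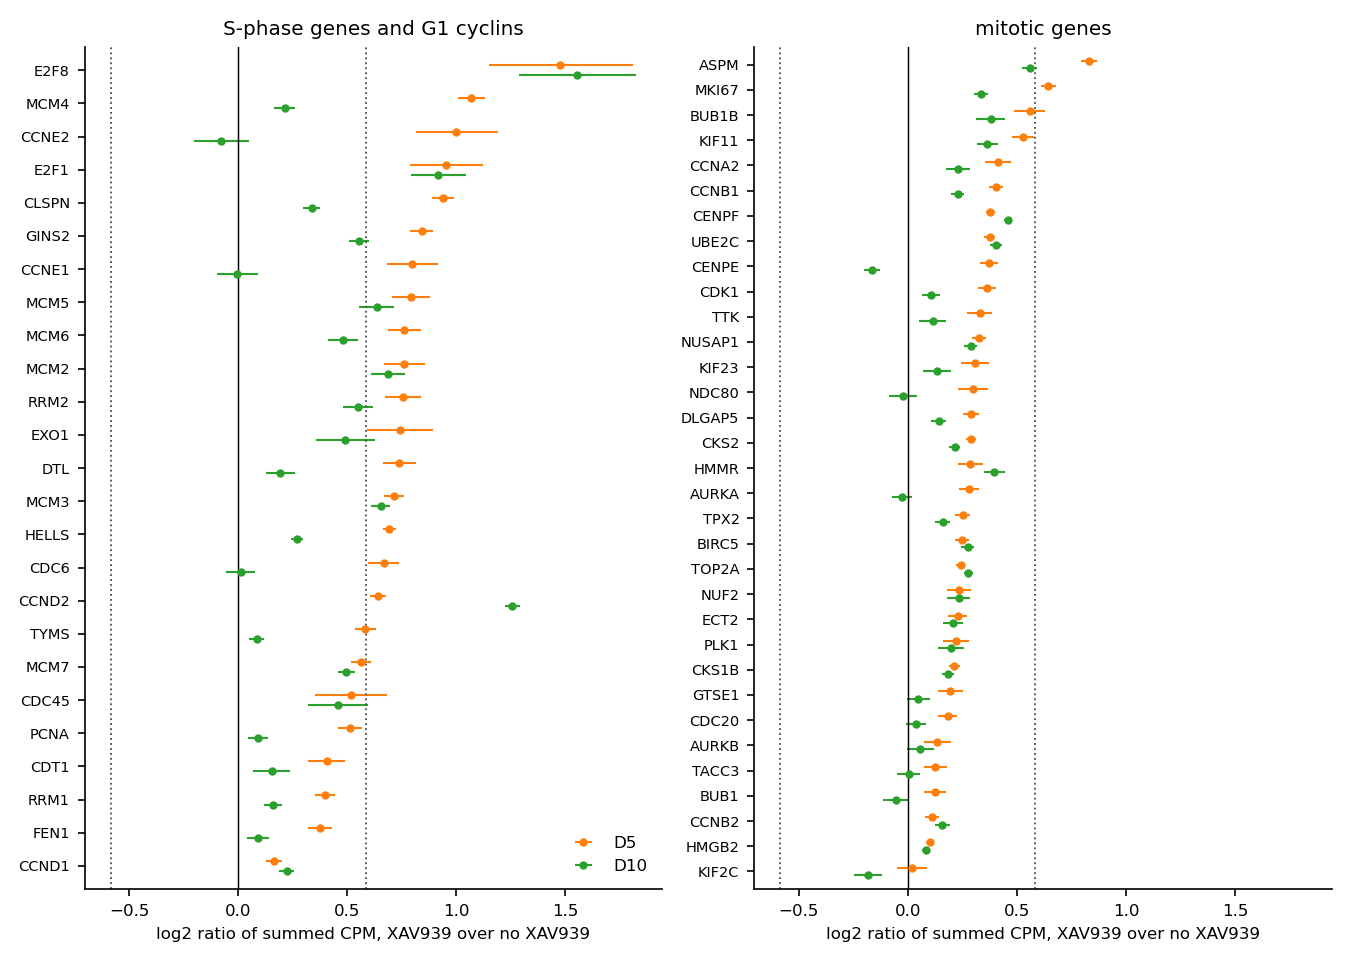
log2 ratio of summed CPM with XAV939 over without it, at D5 (orange) and D10 (green), for each S-phase gene and G1 cyclin (left) and each mitotic gene (right); bars are 95% counting intervals and dotted lines mark 1.5-fold. Most S-phase genes lie further right at D5, and CCND2 lies further right at D10.

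From D0 to D5 without XAV939 the S-phase genes were lower, and from D5 to D10 higher again. In D5_dSMADi 22 of 23 were lower by 1.5-fold or more than at D0 (median -1.24), against 32.7% of features, and in D5_XAV939 13 of 23 (median -0.70), against 31.0%. E2F8 had the lowest ratio in both, -3.41 and -1.93, CCNE2 was above D0 with XAV939, at 0.24, and E2F1 and MCM5 followed without XAV939 at -2.25 and -2.19. RRM1 was the gene not past 1.5-fold without XAV939, at -0.39. These 2 comparisons share the D0 library. The D5_dSMADi library also enters the XAV939 comparison at D5, the setting of D5 ratios against D10 ratios, and the comparison with D10_dSMADi. Results that use this library are thus not separate observations. Among all features 21.6% and 23.1% were higher.

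The mitotic genes had medians nearer to 0 over the same days, -0.35 without and 0.015 with XAV939; the latter was -0.036 over all barcodes and -0.13 with every cell weighted equally. In D5_dSMADi 5 of 33 were lower and 1 was higher by 1.5-fold or more, against 32.7% of features lower and 21.6% higher. In D5_XAV939 4 were lower and 3 higher, against 31.0% and 23.1% of features. With cells weighted equally the 5 became 15 and the median without XAV939 -0.53, and 1 was higher with XAV939. For D5_dSMADi over D0, at 2-fold 16 of 23 S-phase genes were lower and 3 of 33 mitotic genes lower, against 12.0% of features higher and 22.4% lower. For D5_XAV939 over D0, at 2-fold 7 of 23 S-phase genes were lower and 0 of 33 mitotic genes higher, against 13.6% of features higher and 21.0% lower. HMGB2 went up from 376 CPM at D0 to 607 and 651, and CCNB2, a cyclin B, had log2 ratios of 0.52 and 0.63. BUB1B went down from 83.4 to 32.7 and 48.2, HMMR, a spindle protein, from 132 to 57.1 and 69.7, and CCNA2, cyclin A, from 104 to 47.7 and 63.5.

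From D5 to D10, 21 of 23 S-phase genes were higher without XAV939 (median 0.79) and 8 of 23 with it (median 0.49), against 22.2% and 17.2% of features and medians of all features of 0.23 and 0.16. Relative to those medians 11 and 5 of 23 were past 1.5-fold. CCNE2 led without XAV939 at 1.89 (1.72 to 2.07), followed by TYMS, which makes thymidylate, at 1.46 and MCM4 at 1.24. With XAV939 E2F1 led at 1.00 (0.88 to 1.13), followed by TYMS at 0.97 and E2F8 at 0.82. Mitotic medians were 0.41 and 0.31, with 4 and 2 of 33 past 1.5-fold higher and 0 lower, against 22.2% and 17.2% of all features higher, and 5.69% and 7.23% lower. The 4 without XAV939 became 13 over all barcodes, 14 with the limits of D5 at D10 and 10 with cells weighted equally, and 1 both when centred on the median of all features and without the 6% of cells with most UMIs. Without XAV939, at 2-fold 6 of 23 S-phase genes were higher and 0 of 33 mitotic genes higher, against 10.2% of features higher and 2.86% lower. With it, at 2-fold 1 of 23 S-phase genes were higher and 0 of 33 mitotic genes higher, against 7.69% of features higher and 3.60% lower. CENPE had the highest mitotic ratio without XAV939 at 0.99 and HMMR with it at 0.66, while TTK was among the lowest in both at 0.055 and -0.16.

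From D22 to D24, over the first days under DAPT, every gene of both lists was lower. All 33 mitotic genes were past 1.5-fold lower, with a median log2 ratio of -4.46, and all 23 S-phase genes, with a median of -2.53, against 27.6% of 16188 features lower, 20.7% higher and a median of all features of -0.11. The mitotic ratios ran from -2.79 in CKS1B, -3.27 in CKS2 (both bind CDK1) and -3.48 in HMGB2 to -5.18 in MKI67, -5.31 in TTK (spindle checkpoint kinase) and -5.51 in DLGAP5 (spindle assembly). At 2-fold 21 of 23 S-phase genes were lower and 33 of 33 mitotic genes lower, against 12.8% of features higher and 17.1% lower. The S-phase ratios spread more widely. CCNE2 had -0.80, CLSPN, which signals stalled forks, -0.89 and PCNA -1.03, while E2F1 had -3.97, RRM2 -4.14 and E2F8, at 3 UMIs in D24, -5.94 (-8.23 to -4.38). CCND1 and CCND2 had -3.27 and -3.02. Over the same days 6 of 7 neuron markers were higher, 6 of 6 progenitor markers were lower and none was at 0; their part in the fall was not tested.

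From D24 to D26 the 2 lists parted. Of the mitotic genes 25 of 33 were lower again, with a median of -1.36 (10 and -0.99 with a minimum of 500 UMIs, and a median of -1.83 without the 6% of cells with most UMIs), against 9.35% of 15619 features lower, 29.0% higher and a median of all features of 0.31. UBE2C had -3.60, AURKB, the kinase of the chromosomal passenger complex, -3.24 and CCNB2 -3.07, while CENPE had 0.29, BUB1B 0.053 and CKS1B 0.012. Of the S-phase genes 20 of 23 reached the minimum of 50 UMIs, 4 were higher and 4 lower. At 2-fold 0 of 20 S-phase genes were higher and 21 of 33 mitotic genes lower, against 9.91% of features higher and 4.88% lower. The 4 lower S-phase genes were past 2-fold too, RRM2 at -2.90, TYMS at -1.51, DTL at -1.43 and E2F1 at -1.07. The S-phase median of 0.26 was -0.047 relative to the median of all features, where 1 gene was past 1.5-fold higher. FEN1 went from 16.2 to 31.6 CPM, RRM1 from 26.7 to 49.1 and MCM4 from 7.28 to 12.1, and MCM7 was the other gene past 1.5-fold higher, at 0.62, while RRM2 went from 1.5 to 0.201, TYMS from 9.45 to 3.32 and DTL, which marks CDT1 for destruction, from 0.57 to 0.211.

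Over the 4 days from D22 to D26, all 33 mitotic genes and 19 of 23 S-phase genes were lower by 1.5-fold or more, against 21.9% of 16719 features lower and 32.6% higher. At 2-fold 16 of 23 S-phase genes were lower and 33 of 33 mitotic genes lower, against 20.1% of features higher and 15.8% lower. The mitotic median was -6.30, with AURKB at -8.04 (-9.00 to -7.24), DLGAP5 at -7.90 and UBE2C at -7.70 at one end and CKS1B at -2.78 (-2.84 to -2.71), CKS2 at -3.70 and AURKA at -3.82 at the other. At D26 AURKB stood at 0.121 CPM, DLGAP5 at 0.643 and UBE2C at 1.17, so the largest falls rest on few UMIs. By role the medians were -5.64 for CDK1 with its cyclins and the anaphase-promoting complex, -7.01 for chromosome structure, -6.33 for mitotic kinases and the checkpoint, -6.32 for the kinetochore and -5.82 for spindle and cytokinesis. Every gene of each role was past 1.5-fold lower.

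Within the S-phase list the fall from D22 to D26 covered a range from -0.10 to -8.03. FEN1 had -0.10 (-0.17 to -0.038), MCM4 -0.40 (-0.50 to -0.29), CLSPN -0.49 (-0.57 to -0.41) and RRM1 -0.54 (-0.59 to -0.49), none past 1.5-fold, and PCNA had -0.66 and HELLS, a chromatin remodeller, -0.78. At the other end RRM2 went from 26.5 to 0.201 CPM, -7.04 (-7.75 to -6.41), and CDC45, part of the active helicase, from 6.28 to 0.111, -5.83 (-6.84 to -4.98). E2F8 went from 343 UMIs to 1, which gives -8.03 (-13.34 to -5.54). The subunits of 1 complex did not move together: RRM1 and RRM2, the 2 subunits of ribonucleotide reductase, had -0.54 and -7.04, and the 6 MCM subunits ran from -0.40 in MCM4 and -1.20 in MCM7 to -2.82 in MCM2 and -2.85 in MCM5. FEN1 overlaps FADS2 on the same strand, as BUB1B overlaps PAK6 and NUSAP1 overlaps OIP5-AS1. HELLS and CCNB2 each overlap a gene without a symbol on the same strand. How the reads of these genes were divided is uncertain. MCM7 and TYMS, among others, overlap genes on the other strand, AP4M1 and ENOSF1.

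**Figure D4:**
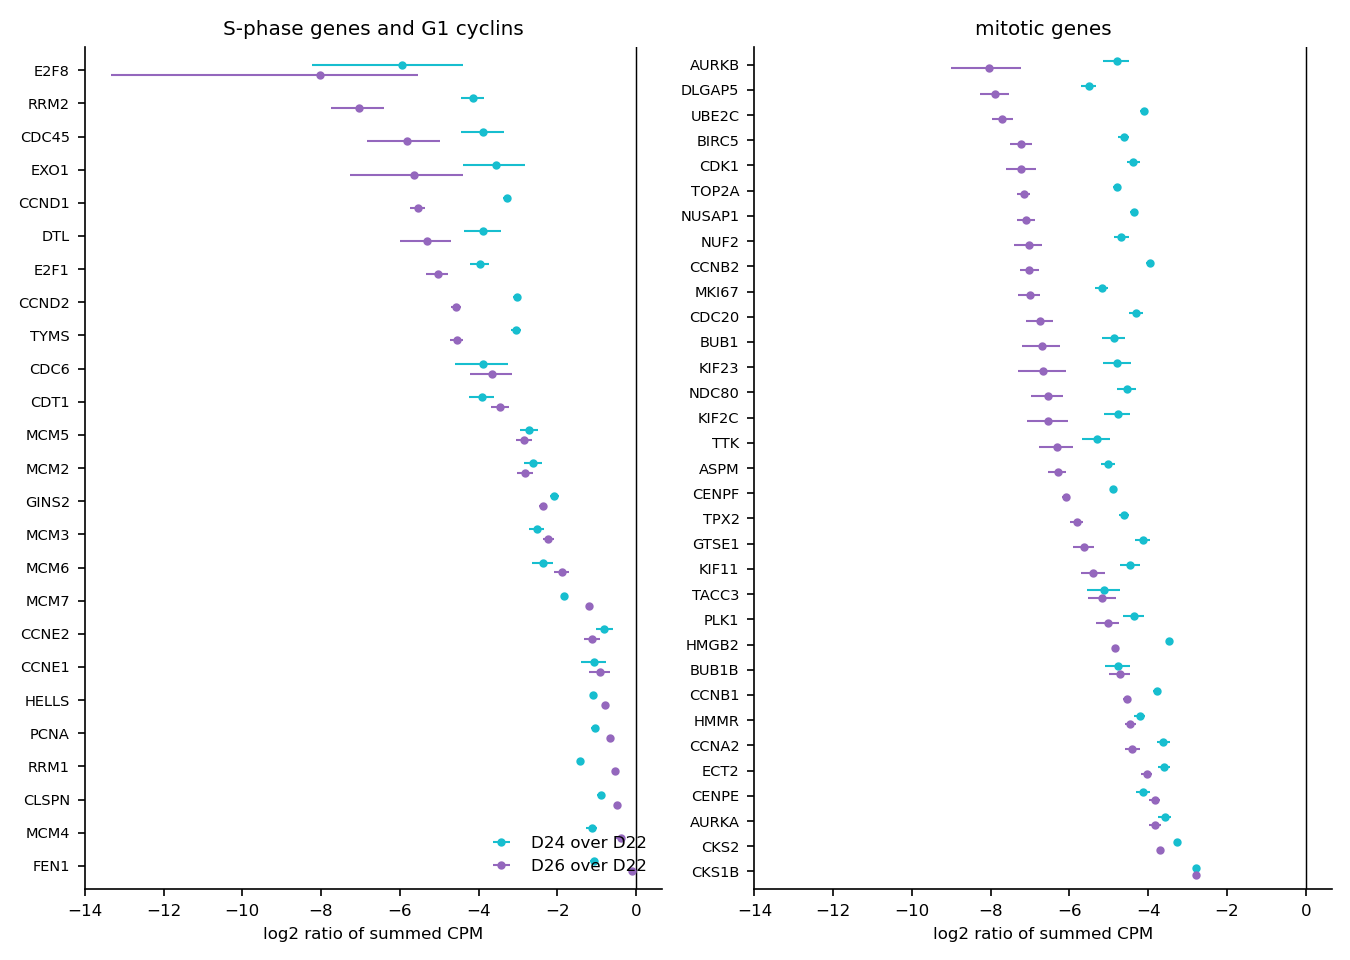
log2 ratio of summed CPM at D24 (cyan) and D26 (purple) over D22 for each S-phase gene and G1 cyclin (left) and each mitotic gene (right), with 95% counting intervals. S-phase genes spread from -0.10 in FEN1 to -8.03 in E2F8 at D26, and mitotic genes lie between -2.78 in CKS1B and -8.04 in AURKB.

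Few cells at D24 had many mitotic genes detected. To compare cells at 1 depth, each was thinned to 1500 UMIs, and cells with 5 or more of the 33 mitotic genes detected were counted; this is a cut on a score and not a cell type. Their share was 68.7% (65.7% to 71.5%) at D0, 32.2% (30.3% to 34.1%) in D5_dSMADi, 41.6% (39.8% to 43.4%) in D5_XAV939, 42.3% (40.3% to 44.3%) in D10_dSMADi and 50% (47.9% to 52.1%) in D10_XAV939. In the later runs it was 19.8% (19% to 20.6%) for D22, 0.615% (0.465% to 0.798%) for D24 and 0.0543% (0.0199% to 0.118%) for D26. The counts behind these 3 were 1881 of 9523, 56 of 9107 and 6 of 11056 cells. With XAV939 the share was higher at D5 and D10 with intervals that did not overlap, though each is 1 library.

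At D24, 10 cells had 3 mitotic genes, none had exactly 4, 5 had 5 and the highest had 23, while 84.2% had none. Each number of genes above 4 was held by few cells, so the empty place at 4 is not read as a gap. At D22, 186 cells had 4, 132 had 5 and the highest had 26. The share with 5 or more of the 23 S-phase genes was 20.2% (17.8% to 22.8%) at D0, 2.6% (2.01% to 3.32%) in D5_dSMADi and 8.74% (7.72% to 9.84%) in D5_XAV939. It was 12.1% (10.8% to 13.5%) in D10_dSMADi, 18.2% (16.6% to 19.9%) in D10_XAV939 and 1.53% (1.3% to 1.8%) at D22. At D24 12 cells (0.132%) and at D26 1 cell (0.00904%) reached 5. With a cut at 3 genes the S-phase share was 6.43% at D22, 0.384% at D24 and 0.425% at D26, so that the order of D24 and D26 turned with the cut, and with a cut at 8 it was 0.0735% at D22.

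**Figure D5:**
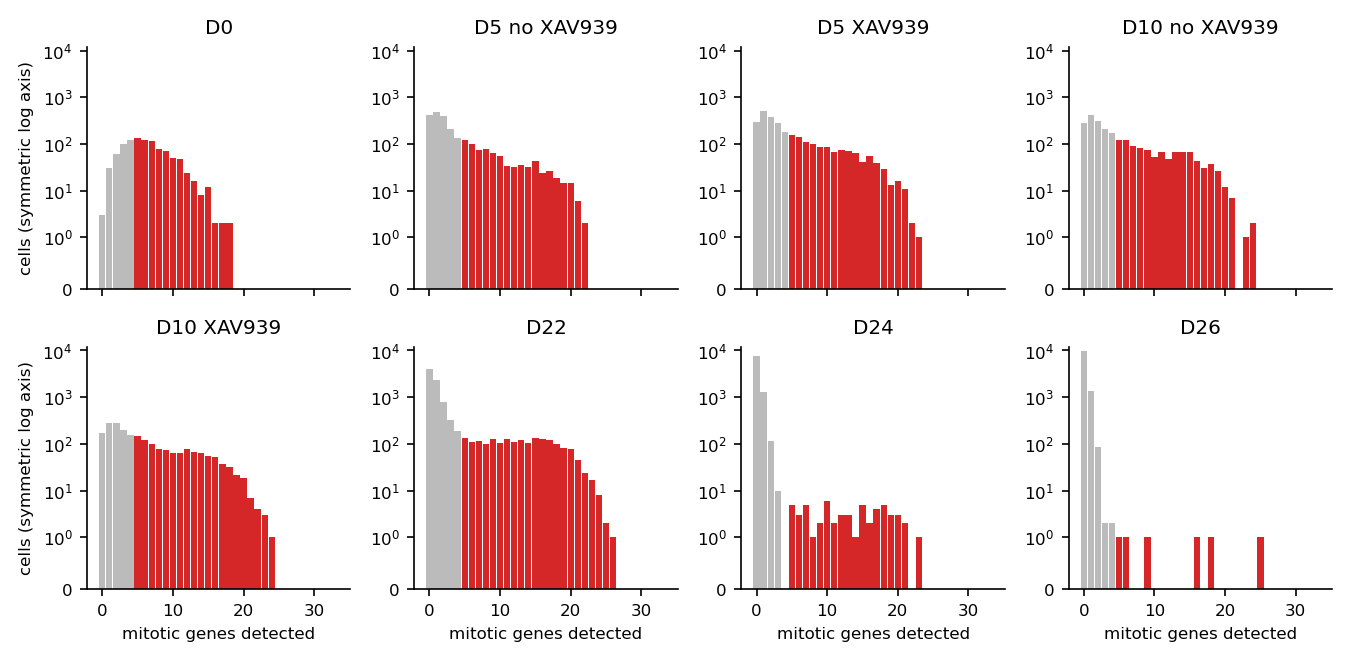
Number of cells (y axis, symmetric log) by the number of the 33 mitotic genes detected after thinning each cell to 1500 UMIs (x axis), for the 8 libraries; red bars are cells with 5 or more. At D22 the red cells run on from the grey ones, and at D24 no cell has 4 and 56 cells are red.

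S-phase genes differed in how much of their D24 level lay in these 56 cells. At D24 the 56 cells held 0.911% of all UMIs, 57.2% of the mitotic UMIs, which defined them, and 8.87% of the S-phase UMIs. Their share of the UMIs of single mitotic genes ran from 21.2% to 97.5%, and it follows in part from how the cells were chosen. The 56 cells held 85.7% of the UMIs of RRM2, 73.3% of CDC45, 52.5% of DTL and 42.1% of TYMS. Of RRM1 they held 3.63%, of FEN1 3.52%, of HELLS 4.15%, of CLSPN 5.54%, of PCNA 5.74% and of MCM4 6.26%. Over all cells of D24 RRM2 stood at 1.5 CPM and DTL at 0.57, against 26.7 for RRM1 and 16.2 for FEN1. The shares of RRM2 and DTL thus rest on far fewer UMIs, and no intervals were set on these shares. In the other cells of D24 RRM1 stood at 26 CPM, FEN1 at 15.8 and HELLS at 28.5, and RRM2 at 0.216, CDC45 at 0.115 and CDC6 at 0.201.

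Shares of cells with a UMI were set beside those of neuron-marked cells. Neuron-marked cells (5 or more UMIs of the neuron markers and none of SOX2 at 1500 UMIs) served as the background, with 1978 cells at D22, 8854 at D24 and 10887 at D26 and median depths of 11462.5, 7167 and 8485 UMIs, close to those of all cells (12179, 7180 and 8485). TOP2A was found in 17.8% of thinned cells at D22 against 1.72% of neuron-marked cells, in 0.615% against 0.226% at D24 and in 0.127% against 0.0827% at D26. Unthinned the shares were 31.4%, 1.13% and 0.525%, against 7.13%, 0.689% and 0.441% of neuron-marked cells. PCNA was found in 3.38% against 1.77% at D22, 2.12% against 2.04% at D24 and 2.47% against 2.47% at D26. Without thinning it was found in 22.2%, 9.62% and 14.5%, against 13.7%, 9.23% and 14.4% of neuron-marked cells. At D24 and D26 nearly all cells were neuron-marked, so the reference there holds mostly the same cells and gives no separate background for TOP2A or PCNA. Up to D10 there were too few neuron-marked cells (45 at most) for such a background.

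The G1 cyclins stood on opposite sides of this cut at D22 and D24. At D22 CCND1 stood at 52.1 against 125 CPM in the 1881 cells with 5 or more mitotic genes and the 4011 with none, and CCND2 at 61.4 against 128 CPM. At D24 CCND1 stood at 385 against 4.79 CPM in the 56 and the 7666 such cells, and CCND2 at 103 against 10.5 CPM. Both were thus higher in cells without mitotic genes at D22, and in cells with them at D24. Beside these, the 56 cells and the 7666 had SOX2 at 302 against 12.3 CPM, VIM at 2767 against 415 CPM, STMN2, a neuron marker, at 1803 against 9188 CPM and GNRH1 at 12.5 against 1135 CPM, and median depths of 11196 and 7194 UMIs. Of the markers named for a cluster with IRX genes, NR2F1 stood at 247 against 20.9 CPM, IRX1 at 29.7 against 2.65 CPM, IRX2 at 51.6 against 8.27 CPM, IRX3 at 12.5 against 3.11 CPM and CRABP1 at 238 against 115 CPM. In the corresponding cells of D22, SOX2 stood at 427 against 129.8 CPM, VIM at 3989.8 against 3173 CPM, STMN2 at 239 against 2209 CPM, NR2F1 at 55.6 against 23.1 CPM, IRX1 at 6.14 against 4.36 CPM, IRX2 at 25.2 against 15.6 CPM, IRX3 at 7.12 against 2.72 CPM and CRABP1 at 59.7 against 109.9 CPM. The part of these genes in the cyclin levels was not tested. Doublets were not called, and their part was not tested. In the libraries of D5 and D10 both cyclins were, as at D22, lower in cells with 5 or more mitotic genes than in cells with none. Their log2 ratios ran from -1.09 to -0.34 for CCND1 and from -0.73 to -0.13 for CCND2. At D26 the ratios were 6.30 and 3.67, over 6 cells with 5 or more mitotic genes. At D0, where 3 cells had none, the ratios were -0.016 and 0.73.

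Other genes of the cycle, listed apart from the 58, were read the same way. Of 26 other S-phase genes 14 were past 1.5-fold higher with XAV939 at D5 and 3 at D10, and of 28 other mitotic genes 0 on both days, against 6.19% and 6.44% of all features. CDCA7 had 1.64 at D5 and 0.79 at D10, and UHRF1, which maintains DNA methylation, 1.26 and 0.65. From D22 to D26 16 of the 26 were lower and 2 higher (median -0.73), and 26 of the 28 lower and 0 higher (median -4.11), against 21.9% of features lower and 32.6% higher. TK1, a thymidine kinase, had -7.14. UHRF1, CDCA7 and TK1 were named after their values were seen.

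Of 12 activators of the cycle, 2 were past 1.5-fold higher and 0 lower with XAV939 at D5, and 3 higher and 1 lower at D10, against 6.19% and 4.55% of all features at D5 and 6.44% and 9.48% at D10. E2F2 had 1.25 and 1.20 on the 2 days, from 0.64 and 1.22 CPM without XAV939, and MYBL2, part of the complex that switches on mitotic genes, 0.64 and 0.44. MYCN had 0.96 and MYC 0.81 at D10, and CDK6, the partner of D cyclins, -0.62. From D22 to D26 7 of 12 were lower, against 21.9% of features, MYBL2 at -5.64, FOXM1 at -5.33 and CDK2 at -4.87, while CCND3 had 1.36, CDC25A 0.30 and MYC -0.031.

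Of 18 CDK inhibitors and repressors, 3 were higher and 1 lower with XAV939 at D10, and 1 and 0 at D5 (16 and 15 at the minimum of 50 UMIs, with 6.44% of features higher and 9.48% lower at D10 and 6.19% and 4.55% at D5), where BTG2 led at 0.74 and CDKN1A was lowest at -0.38. At D10 CDKN1A (p21) went from 19.7 to 7.06 CPM and CDKN1C (p57) from 19.8 to 35.8. CDKN1C measured 15.8 CPM at D0, 22.8 in D5_dSMADi, 24.4 in D5_XAV939, 19.8 in D10_dSMADi, 35.8 in D10_XAV939, 1641 at D22, 441 at D24 and 194 at D26, with D22 the highest of the later runs. CDKN1B (p27) measured 21.9 CPM at D0, 34.5 in D5_dSMADi, 41.2 in D5_XAV939, 38.9 in D10_dSMADi, 52.9 in D10_XAV939, 53.5 at D22, 48.5 at D24 and 73.6 at D26. CDKN2D (p19) measured 4.54 CPM at D0, 2.77 in D5_dSMADi, 4.08 in D5_XAV939, 5.9 in D10_dSMADi, 10.2 in D10_XAV939, 42 at D22, 164 at D24 and 168 at D26. CDKN2D was higher at D24 and D26 than at D22, while others of the list were lower, CDKN2C at -7.29 on the log2 scale from D22 to D26, BTG2 at -4.05 and CDKN1C at -3.08. LIN37 and LIN52, subunits of the DREAM complex, had 1.43 and 0.92. Over those 4 days 4 of 18 were higher and 7 lower, with 17 at the minimum of 50 UMIs, against 32.6% and 21.9% of features. In cells with 5 or more mitotic genes CDKN1C was lower than in cells with none in D10_dSMADi (14 against 48.1 CPM), D10_XAV939 (16.5 against 189 CPM), D22 (1100.1 against 1785 CPM) and D24 (315 against 437 CPM), and higher in D5_dSMADi (25.5 against 20.7 CPM), D5_XAV939 (26.6 against 22 CPM) and, over 6 cells, D26 (324 against 193 CPM).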

How the data were processed

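The deposited files hold UMI counts per gene and barcode, which the authors made with Cell Ranger on GRCh38 (version 3.1 per the labels, 3.1.0 in the file headers of D22 to D26 and 6.1.2 in those of the pooled run). Each of the 5 tagged conditions came as a matrix of its own; its condition was checked by its tag, which held over 95% of its tag counts. Cells were kept by the limits the study states: 30000 UMIs and 5000 genes at D0, 10000 and 3000 at D5 and D10, and 1500 and 1000 from D22 on, mitochondrial shares under 0.1 or 0.2, and complexity (log genes over log UMIs) above 0.78 at D5, between 0.82 and 0.9 at D10 and above 0.82 from D22 on. The limit stated for D0 would have kept 1 cell and was not set; without it D0 had 1 cell more than the study gives. At D22 to D26 the cells kept number as in the study, whereas at D5 and D10 its numbers are those of all barcodes, which were run as an alternative. No doublet caller was run; an alternative leaves out the 6% of cells with most UMIs.

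UMIs were summed over cells and scaled to CPM with exact Poisson intervals, log2 ratios carry exact binomial intervals, and shares Clopper-Pearson intervals, all at 95% and for counting error only, and total UMIs per library set their width. Ratios and intervals were run on simulated Poisson counts, which is the model the intervals assume. That run cannot show how they do where UMIs cluster in few cells. Genes named are those with values in every library by a fixed list, the 3 highest and 3 lowest of each list and comparison with 50 UMIs or more, and members singled out in the text. The members and all gene lists were chosen with earlier results of these data known. Alternatives were another minimum, fold, centring, weighting, cell filter, thinning depth and cut. Promoters were read from RefSeq tables. Python 3.11.15, numpy 2.4.6, scipy 1.17.1, pandas 2.3.3 and matplotlib 3.10.9 were used.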

Additional observations from a re-analysis of the deposited data

Results flagged for a closer look

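For 2 mitotic genes the log2 ratio of XAV939 over no XAV939 had opposite signs on the 2 days with both counting intervals apart from 0: BUB1, a kinase of the spindle checkpoint, had 0.12 at D5 and -0.057 (-0.11 to -0.0019) at D10, and CENPE had 0.37 at D5 and -0.16 at D10. The D10 median of the mitotic genes changed sign with the cells kept, and the signs of BUB1 and CENPE were not recomputed for other choices of cells. For both G1 cyclins the log2 ratio of cells with 5 or more mitotic genes over cells with none had opposite signs at D22 and D24, from -1.26 to 6.33 for CCND1 and from -1.06 to 3.29 for CCND2. The libraries of D5 and D10 had the sign of D22, and D26, over 6 cells, had that of D24. Each value compares 1 library with 1 library, or cells within 1 library, and these differences were not tested.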

How the results depend on the processing

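Median log2 ratios, numbers of genes past 1.5-fold and shares of cells came to 52 values and were recomputed under 294 alternatives. Of these, 196 moved within a set limit, 95 moved further and 3, marked as reversed, changed the sign of a median whose reported value was apart from 0. For shares the limit was the counting interval. Numbers of genes, counted in the direction of the reported median of the list, had a limit of 1.5 times. For medians it was the median half-width of the intervals of single genes, which is not the counting error of the median itself. The mitotic median of D5_XAV939 over D0, reported near 0, changed sign as well under some of the alternatives. Centred on the median of all features, the median log2 ratio of S-phase genes was -0.047 for D26 over D24 (reversed), -2.58 for D26 over D22, -1.10 for D5_dSMADi over D0, -0.62 for D5_XAV939 over D0, 0.56 for D10_dSMADi over D5_dSMADi and 0.33 for D10_XAV939 over D5_XAV939. Centred on the median of all features, the median log2 ratio of mitotic genes was 0.23 for D5_XAV939 over D5_dSMADi, -0.21 for D5_dSMADi over D0, 0.088 for D5_XAV939 over D0, 0.19 for D10_dSMADi over D5_dSMADi and 0.15 for D10_XAV939 over D5_XAV939. Centred on the median of all features, the number of S-phase genes past the threshold was 1 for D26 over D24, 11 for D10_dSMADi over D5_dSMADi and 5 for D10_XAV939 over D5_XAV939. Centred on the median of all features, the number of mitotic genes past the threshold was 1 for D10_dSMADi over D5_dSMADi and 0 for D10_XAV939 over D5_XAV939. With every cell weighted equally, the median log2 ratio of S-phase genes was 0.83 for D5_XAV939 over D5_dSMADi, -1.40 for D5_dSMADi over D0 and 0.94 for D10_dSMADi over D5_dSMADi. With every cell weighted equally, the median log2 ratio of mitotic genes was -0.53 for D5_dSMADi over D0, -0.13 for D5_XAV939 over D0 and 0.48 for D10_dSMADi over D5_dSMADi. With every cell weighted equally, the number of mitotic genes past the threshold was 15 for D5_dSMADi over D0, 1 for D5_XAV939 over D0 and 10 for D10_dSMADi over D5_dSMADi. Without the 6% of cells with most UMIs, the median log2 ratio of mitotic genes was 0.30 for D10_XAV939 over D10_dSMADi, -1.83 for D26 over D24, -6.60 for D26 over D22 and 0.31 for D10_dSMADi over D5_dSMADi. Without the 6% of cells with most UMIs, the number of mitotic genes past the threshold was 2 for D10_XAV939 over D10_dSMADi and 1 for D10_dSMADi over D5_dSMADi. Without the 6% of cells with most UMIs, the share of cells by mitotic genes was 39.7% in D5_XAV939, 39.9% in D10_dSMADi and 17.3% in D22. Over all deposited barcodes (for shares, those with 1500 UMIs or more), the median log2 ratio of mitotic genes was -0.021 for D10_XAV939 over D10_dSMADi (reversed), -0.036 for D5_XAV939 over D0 and 0.54 for D10_dSMADi over D5_dSMADi. Over all deposited barcodes (for shares, those with 1500 UMIs or more), the number of mitotic genes past the threshold was 13 for D10_dSMADi over D5_dSMADi. Over all deposited barcodes (for shares, those with 1500 UMIs or more), the share of cells by mitotic genes was 45.8% in D10_dSMADi. With D10 cells kept by the limits of D5, an alternative chosen after seeing the data, the median log2 ratio of mitotic genes was -0.0075 for D10_XAV939 over D10_dSMADi (reversed) and 0.54 for D10_dSMADi over D5_dSMADi. With D10 cells kept by the limits of D5, an alternative chosen after seeing the data, the number of mitotic genes past the threshold was 14 for D10_dSMADi over D5_dSMADi. With D10 cells kept by the limits of D5, an alternative chosen after seeing the data, the share of cells by mitotic genes was 45.3% in D10_dSMADi. With a minimum of 500 UMIs, the median log2 ratio of mitotic genes was -0.99 for D26 over D24. With a minimum of 500 UMIs, the number of mitotic genes past the threshold was 10 for D26 over D24. At 2-fold, the number of S-phase genes past the threshold was 3 for D5_XAV939 over D5_dSMADi, 1 for D10_XAV939 over D10_dSMADi, 0 for D26 over D24, 7 for D5_XAV939 over D0, 6 for D10_dSMADi over D5_dSMADi and 1 for D10_XAV939 over D5_XAV939. At 2-fold, the number of mitotic genes past the threshold was 0 for D5_XAV939 over D5_dSMADi, 3 for D5_dSMADi over D0, 0 for D5_XAV939 over D0, 0 for D10_dSMADi over D5_dSMADi and 0 for D10_XAV939 over D5_XAV939. With a cut at 3 genes, the share of cells by S-phase genes was 61.2% in D0, 13.5% in D5_dSMADi, 30.1% in D5_XAV939, 36.2% in D10_dSMADi, 47.1% in D10_XAV939, 6.43% in D22, 0.384% in D24 and 0.425% in D26. With a cut at 3 genes, the share of cells by mitotic genes was 90.7% in D0, 46.2% in D5_dSMADi, 57.8% in D5_XAV939, 58.1% in D10_dSMADi, 66.6% in D10_XAV939 and 25.1% in D22. With a cut at 8 genes, the share of cells by S-phase genes was 1.59% in D0, 0.124% in D5_dSMADi, 0.817% in D5_XAV939, 1.16% in D10_dSMADi, 2.68% in D10_XAV939, 0.0735% in D22, 0.022% in D24 and 0% in D26. With a cut at 8 genes, the share of cells by mitotic genes was 31.2% in D0, 20.0% in D5_dSMADi, 26.9% in D5_XAV939, 28.4% in D10_dSMADi, 33.1% in D10_XAV939 and 16.0% in D22. Thinned to 3000 UMIs, the share of cells by S-phase genes was 66.0% in D0, 13.1% in D5_dSMADi, 29.6% in D5_XAV939, 35.6% in D10_dSMADi, 48.7% in D10_XAV939, 5.17% in D22, 0.289% in D24 and 0.0834% in D26. Thinned to 3000 UMIs, the share of cells by mitotic genes was 95.2% in D0, 44.6% in D5_dSMADi, 56.2% in D5_XAV939, 57.0% in D10_dSMADi, 67.2% in D10_XAV939 and 23.5% in D22. At D24 and D26 the shares by mitotic genes moved within counting error, and at D5 and D10 both shares stood higher with XAV939 under each alternative run. Causes were not tested. No paired analysis was possible because each condition was 1 library, and for the same reason no replicate could be left out.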
